A study of Homo sapiens with 192 samples.

Results

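LS513, a human colorectal cancer (CRC) cell line, was grown in 2D and in 3D, and the genome-wide change between the growth conditions is described here. Its libraries were chosen by the cell line and growth labels alone, which gave 3 libraries of LS513 grown in 3D and 3 of LS513 grown in 2D, 6 of the 24 libraries of the study. Each of them was sequenced as 8 technical replicates, and the counts of these were summed first, so that 48 of the 191 sets of counts used belong to LS513. No drug or gene alteration is labelled in either group. According to the methods of the study, the line was maintained in DMEM with fetal bovine serum and antibiotics, and the labels do not give the time in culture or the kind of 3D culture. The other lines, HT29, HCT116 and LS174T, had 3 libraries each in 2D and in 3D, and HCT116 was maintained in McCoy medium. They were set against LS513 in 1 comparison. They were also part of the same fit, so the spread behind the LS513 p-values was estimated over all 24 libraries. Each culture held a single line, and the libraries are bulk RNA, in which fewer cells of a kind and less RNA per cell cannot be told apart. No label says whether the 3 libraries of a group came from separate cultures, so p-values measure the spread between libraries of the same group, which may be technical.

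Cells in 2D spread on plastic under medium and reach oxygen and nutrients evenly, whereas in 3D aggregates the inner cells are farther from both and touch other cells on all sides. In low oxygen, hypoxia-inducible factors escape the prolyl hydroxylases that mark them for degradation and bind short DNA elements near genes of glucose uptake, glycolysis and angiogenesis. Sterol synthesis is controlled by SREBP transcription factors, which INSIG proteins hold in the endoplasmic reticulum while sterol is plentiful. In the colon, Wnt signaling maintains the stem cells of the crypt base, and their daughters leave the cycle as they become absorptive colonocytes or mucus-secreting goblet cells.

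The 6 LS513 libraries held between 31052819 and 33063055 counts, so that the floor of 3 counts, above which a gene was taken as detected, lay between 0.0907 and 0.0966 CPM. CPM, the unit of all levels below, is a count relative to the size of its library, with TMM scaling. Mitochondrial genes took between 2.62% and 3.48% of the counts. The labelled origin was checked with 12 genes of the colon epithelium, all of which were over the floor in every library, with a summed level of 12111 to 12654 CPM in 2D and 16525 to 18699 CPM in 3D. Of 9 fibroblast markers 7 were at or under 3 counts in all 6 libraries, as were 6 of 9 immune cell markers, PTPRC and CD3E among them, and 5 of 6 endothelial markers, PECAM1 and CDH5 among them. The summed level of the fibroblast markers was 0.450 to 0.725 CPM in 2D and 0.658 to 0.810 CPM in 3D. That of the endothelial markers was 0.0317 to 0.0604 CPM in 2D and 0.423 to 0.604 CPM in 3D, mostly from VWF. The immune cell markers summed to 20.7 to 22.3 CPM in 2D and 65.3 to 96.4 CPM in 3D, mostly from CD68, a lysosomal membrane protein that many cell types make.

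The 3D libraries were less alike than the 2D libraries, with a chi-square statistic per degree of freedom (median over genes) of 7.79 among the 3D libraries and 2.40 among the 2D libraries. Replicates 1 and 2 in 3D also differed from replicate 3 in a way that moved with the base composition and the length of the genes. In the decile of protein-coding genes with the lowest GC content (median 37.0%), the median deviation from the 2D mean was -0.29 and -0.37 on the log2 scale in 3D replicates 1 and 2 and 0.00 in replicate 3. In the decile with the highest GC content (64.1%) it was 0.15, 0.25 and 0.04 in the same order. Genes in the shortest decile (1134 bases) lay at 0.19, 0.30 and 0.05, and those in the longest decile (9337 bases) at -0.21, -0.34 and -0.04. The part of this trend in the results was not tested, and beside the counts of genes that rose or fell in each group below the count is therefore given also with an offset for GC content and length fitted in each library, and with 3D replicate 3 alone against the 2D libraries. The latter has 1 library in 3D, which is assumed to vary like the other groups.

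**Figure D1:**
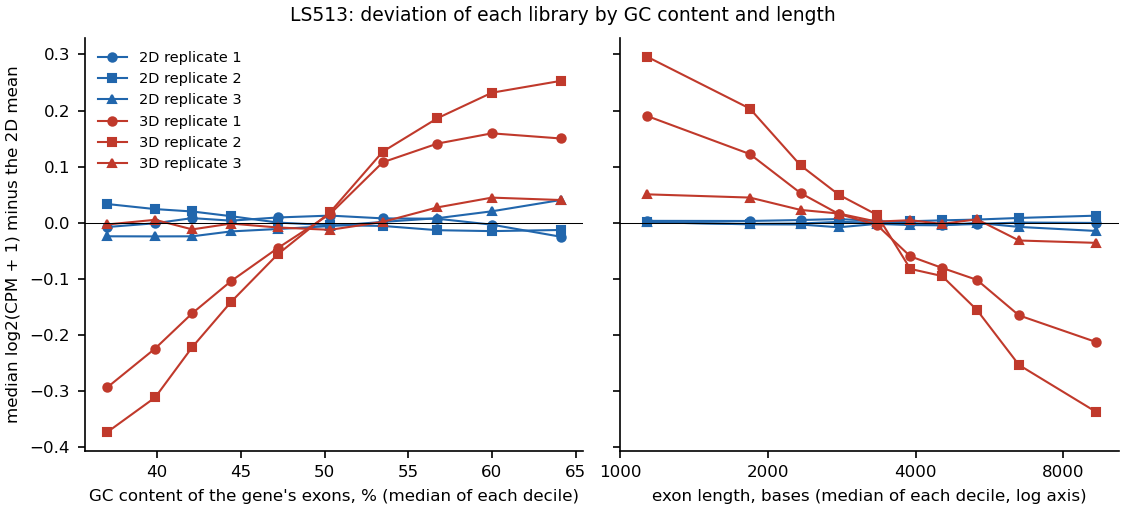
Median deviation of each LS513 library from the mean of the 2D libraries, in log2(CPM + 1), over deciles of protein-coding genes by GC content of the exons in percent (left) and by exon length in bases on a log axis (right). The 3D replicates 1 and 2 run from -0.29 and -0.37 at the lowest GC content to 0.15 and 0.25 at the highest, while 3D replicate 3 and the 2D libraries lie between -0.04 and 0.05 throughout.

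Of 19387 genes tested across the 24 libraries, 4571 (23.6%) differed between 3D and 2D in LS513 at an adjusted p under 0.05 (edgeR's quasi-likelihood test with Benjamini-Hochberg adjustment). In 3D, 2651 genes were higher (13.7%) and 1920 lower (9.9%). The tested genes include 1021 without a count in LS513, and of the 13472 genes with a mean of at least 1 CPM in either group 4186 were called. Changes were larger upward than downward: 942 genes rose and 233 fell by more than 1 on the log2 scale, and 323 rose and 36 fell by more than 2. The median over all tested genes was 0. Gene groups are described below by 26 lists with 738 entries, of which 703 were tested and 35 had too few counts, so the counts of called members cover only those tested. Protein-coding genes made up 2279 of the genes that rose and 1738 of those that fell, and of 507 tested processed pseudogenes, whose reads can come from their parent genes, 73 rose and 9 fell. Genes that rose took 22.3% to 23.9% of all counts in 2D and 29.8% to 34.1% in 3D. As they were chosen by their rise in these same libraries, the direction of this shift follows from the choice. Only 699 genes were higher and 134 lower with 3D replicate 3 alone, and 696 and 132 of these were among the genes called with all libraries. The share of calls that were higher was then 83.9%, against 58.0% with all libraries. With the offset for GC content and length the counts were 2932 and 2304. In a fit of only the 6 LS513 libraries they were 2990 and 2602. Every 2D library was above or below every 3D library for 42.9% of the tested genes, so that a lack of overlap was common.

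**Figure D2:**
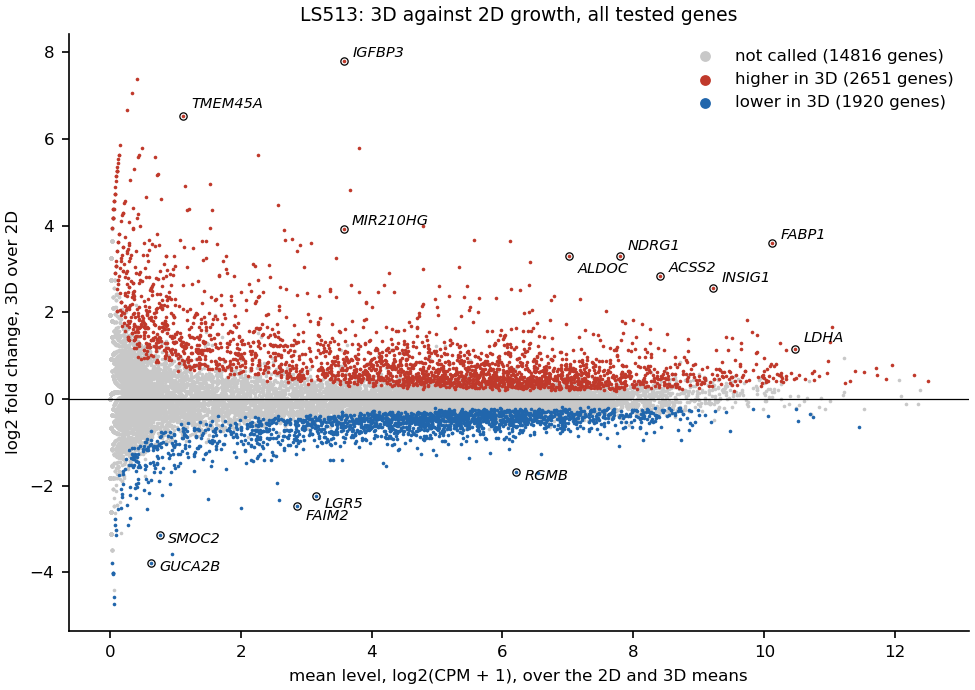
Log2 fold change of 3D over 2D against the mean level in log2(CPM + 1) for the 19387 tested genes of LS513, with the 2651 genes called higher in 3D in red, the 1920 called lower in blue and the others in grey. More genes lie above 2 (323 called) than below -2 (36 called).

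The 10 largest rises included secreted and membrane proteins. IGFBP1, an insulin-like growth factor binding protein, was at 0.483, 0.574 and 0.317 CPM in 2D and 27.1, 32.7 and 16.5 CPM in 3D, so that the groups were far apart (log2 fold change 5.78 ± 0.34 SE, adjusted p = 3.7e-09, edgeR). Its relative IGFBP3 reached 25.5, 28.2 and 12 CPM in 3D from at most 0.158 CPM in 2D (log2 fold change 7.80 ± 0.43 SE, adjusted p = 2.0e-09, edgeR). ANGPTL4, a secreted inhibitor of lipoprotein lipase, had 0.161, 0.151 and 0.127 CPM in 2D and 10.4, 7.32 and 4.78 CPM in 3D (log2 fold change 5.64 ± 0.56 SE, adjusted p = 1.9e-07, edgeR). In each of these genes 3D replicate 3 had the lowest level of the 3D libraries and was still above all 2D libraries. TMEM45A, a transmembrane protein, had 2 counts over all 2D libraries, and its level in 3D was 110.4 (95% counting interval 30.2 to 918) times as high. CALB1, a calcium-binding protein, CEACAM7, an adhesion molecule of differentiated colonocytes, and CHD5, a chromatin remodeler, had 2 or 3 counts over the 2D libraries. Their ratios of 3D to 2D were 57.2 (95% counting interval 15.4 to 478), 40.4 (95% counting interval 13.4 to 199) and 41.1 (95% counting interval 13.7 to 202). Another 3 genes completed the 10 largest rises. SLC22A11, an organic anion transporter, was at 0.0322, 0.151 and 0.158 CPM in 2D and 4.19, 4.44 and 2.39 CPM in 3D. NWD2 was at 0.0322, 0.0302 and 0.158 CPM in 2D and 2.01, 2.66 and 2.36 CPM in 3D, and C11orf86 at 0.74, 0.695 and 0.982 CPM in 2D and 22.3, 30.2 and 15.6 CPM in 3D. These genes were chosen among those whose groups did not overlap.

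The genes with the smallest p-values among those that rose were MIR210HG, FAM13A, ACSS2, GCNT3 and CA2. MIR210HG, the host transcript of miR-210, a miRNA known for its induction by hypoxia, was at 1.13, 1.63 and 1.27 CPM in 2D and 24.7, 20.4 and 16.4 CPM in 3D (log2 fold change 3.93 ± 0.20 SE, adjusted p = 2.1e-11, edgeR). The mature miRNA was not measured in these libraries of poly(A) RNA. Its sequence is shown because the host had the smallest p of all tested genes, with the seed (bases 2 to 8) in capitals, as given by RefSeq for chr11:568112-568133 on the minus strand of GRCh38.p14.
hsa-miR-210-3p: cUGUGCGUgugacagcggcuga
GCNT3, which adds branches to mucin O-glycans, rose from 22.4 ± 4.6 to 129 ± 18.8 CPM (mean ± SD, n = 3 each), and FAM13A from 17 ± 1.76 to 70.5 ± 6.86 CPM. CA2, a carbonic anhydrase of surface colonocytes, was at 1.19, 0.695 and 0.634 CPM in 2D and 12.5, 11.2 and 8.94 CPM in 3D (log2 fold change 3.69 ± 0.21 SE, adjusted p = 2.1e-10, edgeR).

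Among the largest falls were genes of the crypt base and of signaling at the membrane. LGR5, the R-spondin receptor that marks crypt stem cells, was at 12.9, 13.1 and 13.1 CPM in 2D and 2.92, 2.27 and 3.12 CPM in 3D (log2 fold change -2.23 ± 0.25 SE, adjusted p = 1.3e-06, edgeR). SMOC2, a secreted matrix protein of the same cells, was at 1.67, 1.15 and 0.982 CPM in 2D and 0.106, 0.178 and 0.139 CPM in 3D. Both were far lower in every 3D library than in any 2D library. NR4A3, an orphan nuclear receptor of the immediate early kind, had 5.82, 5.35 and 4.31 CPM in 2D and 1.06, 0.71 and 0.936 CPM in 3D (log2 fold change -2.51 ± 0.31 SE, adjusted p = 2.6e-06, edgeR). FAIM2, an inhibitor of Fas-induced cell death, was at 8.69, 11.1 and 12.2 CPM in 2D and 2.01, 2.13 and 1.66 CPM in 3D. OR51E1, an olfactory receptor, was at 7.95, 9.61 and 7.57 CPM in 2D and 1.97, 1.31 and 1.66 CPM in 3D. The falls, too, were chosen among genes without overlap. CHST13, a chondroitin sulfotransferase, fell from 7.79 ± 0.884 to 2.02 ± 0.261 CPM (mean ± SD, n = 3 each), and GRM8, a glutamate receptor, from 1.21 ± 0.167 to 0.257 ± 0.194 CPM. The gene listed as ENSG00000224417 fell by 2.31 on the log2 scale. B3GALT2, a galactosyltransferase, fell to at most 0.208 CPM in 3D, and GUCA2B, which encodes uroguanylin, was at 1.42, 1.45 and 0.19 CPM in 2D and 0, 0.071 and 0.139 CPM in 3D, where 2D replicate 3 lay close to the 3D libraries. Genes with smaller falls but small p-values included RGMB, a BMP co-receptor, at 111, 117 and 107 CPM in 2D and 29.6, 39.1 and 36 CPM in 3D (log2 fold change -1.68 ± 0.17 SE, adjusted p = 2.2e-07, edgeR). SLC29A1, the equilibrative nucleoside transporter that takes up adenosine, was at 291, 273 and 250.4 CPM in 2D and 164, 156 and 155 CPM in 3D (log2 fold change -0.78 ± 0.08 SE, adjusted p = 3.0e-07, edgeR). WDR62, a spindle pole protein, fell by 0.83 on the log2 scale.

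**Figure D3:**
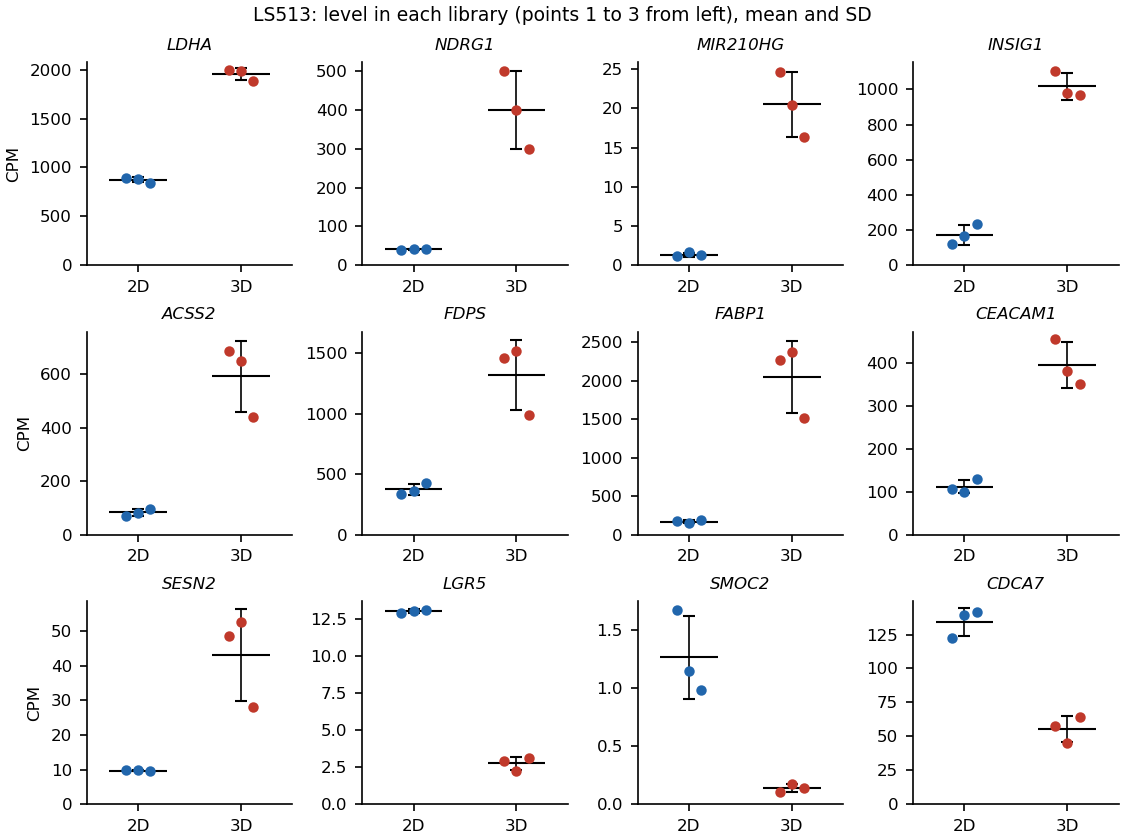
Level in CPM of 12 named genes in each LS513 library grown in 2D (blue) and 3D (red), with replicates 1 to 3 from left to right and the mean and SD as black lines. The upper rows hold genes that rose, such as LDHA from between 845 and 893 CPM to between 1886 and 1998 CPM. The lower row holds LGR5, SMOC2 and CDCA7, which fell. The 2D and 3D points do not overlap in any panel. The genes were named for small p-values or large changes without overlap, so this follows largely from the choice. It held for 42.9% of all tested genes.

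Glycolysis genes rose. Of 24 tested genes of glucose transport and glycolysis, 19 were higher in 3D against 13.7% of all tested genes, and 1, PFKM, the muscle form of phosphofructokinase, was lower, a call lost without 2D replicate 1, 2D replicate 2 or 3D replicate 2. The median log2 fold change of the list was 0.74. SLC2A1, the main glucose transporter of proliferating cells, was at 439, 383 and 369 CPM in 2D and 1172, 1050.1 and 927 CPM in 3D (log2 fold change 1.40 ± 0.12 SE, adjusted p = 1.7e-08, edgeR). LDHA, which turns pyruvate into lactate, was at 893, 887 and 845 CPM in 2D and 1998, 1987 and 1886 CPM in 3D (log2 fold change 1.16 ± 0.09 SE, adjusted p = 2.1e-09, edgeR). SLC16A3, the exporter of lactate, rose from 57.8 ± 4.31 to 192 ± 20.5 CPM (mean ± SD, n = 3 each), a 3.31-fold increase. The steepest member was ALDOC, an aldolase, at 17.8, 22.5 and 31.5 CPM in 2D and 282, 243 and 176 CPM in 3D (log2 fold change 3.29 ± 0.26 SE, adjusted p = 1.1e-08, edgeR). PDK1, which shuts pyruvate out of the mitochondrial citrate cycle, had a log2 fold change of 1.62. Members that did not pass the test were SLC16A1, PFKFB3, LDHB and HK1, with values from -0.28 to 0.25. Together the tested genes of the list took 1.35% to 1.38% of all counts in 2D and 1.97% to 2.27% in 3D. The count of higher genes was 13 with 3D replicate 3 alone and 19 with the offset for GC content and length.

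Of 35 tested hypoxia-responsive genes outside glycolysis, 28 rose, against 13.7% of all tested genes, and none fell. The median log2 fold change was 1.18. NDRG1, a stress-induced cytoplasmic protein, was at 39.3, 41.7 and 41.6 CPM in 2D and 500.4, 400.5 and 299.8 CPM in 3D (log2 fold change 3.29 ± 0.23 SE, adjusted p = 1.7e-09, edgeR). BNIP3L, a receptor for the removal of mitochondria by autophagy, was at 13.6, 16.2 and 19.3 CPM in 2D and 88.8, 75.7 and 80.3 CPM in 3D (log2 fold change 2.32 ± 0.18 SE, adjusted p = 5.7e-09, edgeR). CA9, a carbonic anhydrase at the cell surface that acidifies the surroundings, was at 3.57, 3.44 and 2.34 CPM in 2D and 68.4, 53.3 and 28.1 CPM in 3D (log2 fold change 4.00 ± 0.37 SE, adjusted p = 1.5e-07, edgeR). In none of these did the groups overlap, and in NDRG1 and CA9 the 3D libraries themselves were spread, with replicate 1 the highest and replicate 3 the lowest. The feedback genes of the pathway, EGLN1 and EGLN3, which encode oxygen-sensing prolyl hydroxylases, rose by 0.69 and 1.78 on the log2 scale. Collagen-modifying enzymes were also higher, with P4HA1 at 1.63, P4HA2 at 1.00 and PLOD2 at 1.64. DDIT4, an inhibitor of mTORC1, was at 9.4, 10.7 and 10.3 CPM in 2D and 144, 137 and 99.2 CPM in 3D (log2 fold change 3.64 ± 0.28 SE, adjusted p = 6.2e-09, edgeR). BHLHE40, a repressor that also acts in the clock, rose by 3.17 on the log2 scale. The members that did not pass included HILPDA (0.21) and STC1 (1.95, adjusted p = 0.47, edgeR). The count was 27 with 3D replicate 3 alone and 29 with the offset.

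Promoters of these genes were searched on both strands for ACGTG or GCGTG, the core of the hypoxia response element, in the 250 bases before each RefSeq start. The table holds 35116 promoters on GRCh38.p14, of which 43.2% have a match. Of 39 promoters of the 20 called glycolysis genes 61.5% had a match, as did 81.5% of 27 promoters of 23 called hypoxia-responsive genes. The share was 86.4% for 22 promoters of 17 called sterol genes, so it was not particular to hypoxia-responsive genes. For called genes that fell, it was 61.5% of 26 promoters of DNA replication genes and 52.4% of 21 promoters of mitosis genes. The share of glycolysis genes was thus not particular to genes that rose. The stretches below are shown because these genes had the largest rises among members with a match. Capitals mark matches on either strand, which overlap where CACGTG holds a match on both, and all are written 5′ to 3′ along the strand of the gene.
IGFBP3, chr7:45921283-45921367, minus strand: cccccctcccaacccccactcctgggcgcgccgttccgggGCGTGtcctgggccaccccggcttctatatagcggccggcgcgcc
ANGPTL4, chr19:8363905-8363965, plus strand: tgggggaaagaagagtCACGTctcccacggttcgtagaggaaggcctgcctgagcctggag
PPFIA4, chr1:203026367-203026451, plus strand: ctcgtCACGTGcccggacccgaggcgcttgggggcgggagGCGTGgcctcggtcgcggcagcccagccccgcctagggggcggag
CA9, chr9:35673900-35673924, plus strand: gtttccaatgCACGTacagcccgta
The match lay 55 bases before the start in IGFBP3, 234 in ANGPTL4 and 18 in CA9, while PPFIA4, a scaffold protein of the liprin family, had 3 matches, at 119, 118 and 84 bases. PPFIA4 itself was at 0.0965, 0.0906 and 0.158 CPM in 2D and 2.54, 2.42 and 2.32 CPM in 3D.

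Sterol synthesis was the group in which nearly every member rose. Of 25 tested genes of sterol synthesis and uptake, 23 were higher in 3D against 13.7% of all genes and none was lower. PMVK, a kinase of the mevalonate branch, did not pass the test (0.23). The median log2 fold change was 1.29. The mean of log2(CPM + 1) over the list was 6.16, 6.39 and 6.60 in 2D and 7.77, 7.68 and 7.52 in 3D, so that no 3D library came near a 2D library. INSIG1, which retains the SREBP complex in the endoplasmic reticulum, was at 121, 166 and 233 CPM in 2D and 1106, 979 and 969.5 CPM in 3D (log2 fold change 2.56 ± 0.18 SE, adjusted p = 1.7e-09, edgeR). HMGCS1, the synthase of HMG-CoA, was at 59, 72.2 and 92.6 CPM in 2D and 329, 280.2 and 311 CPM in 3D (log2 fold change 2.04 ± 0.16 SE, adjusted p = 6.2e-09, edgeR). Along the mevalonate branch, MVD, a decarboxylase, rose from 48.5 ± 10 to 242 ± 63.7 CPM and FDPS, which makes farnesyl diphosphate, from 374 ± 47.3 to 1321 ± 291 CPM (mean ± SD, n = 3 each). ACAT2, which joins acetyl-CoA molecules at the start of the pathway, was at 47.9, 59.3 and 68.5 CPM in 2D and 168, 165 and 134 CPM in 3D. The later enzymes FDFT1, SQLE, LSS and DHCR7 had log2 fold changes of 1.38, 1.15, 1.12 and 1.43, and SREBF2, which encodes SREBP-2, one of 0.74. The count stayed at 23 with 3D replicate 3 alone and at 23 with the offset, with medians of 1.11 and 1.25.

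6 of 12 fatty acid synthesis genes rose, against 13.7% of all tested genes, and none fell, with a median of 0.19. ACSS2, which makes acetyl-CoA from acetate, was at 70.1, 82.1 and 97.5 CPM in 2D and 689.7, 650.2 and 441 CPM in 3D (log2 fold change 2.83 ± 0.17 SE, adjusted p = 1.2e-10, edgeR). SCD, the desaturase of stearate, was at 742, 1033 and 1226 CPM in 2D and 3631, 2938 and 2953 CPM in 3D (log2 fold change 1.67 ± 0.21 SE, adjusted p = 4.0e-06, edgeR). FASN, the synthase of palmitate, was at 691, 834 and 912 CPM in 2D and 1412, 1230.3 and 1266 CPM in 3D (log2 fold change 0.68 ± 0.11 SE, adjusted p = 1.3e-04, edgeR). SREBF1 rose from 276 ± 32.6 to 431 ± 34.1 CPM (mean ± SD, n = 3 each). ACACA (-0.10) and FADS2 (-0.32) did not pass the test. The count of higher genes was 3 with 3D replicate 3 alone. With the offset 7 were higher and 1, FADS2, was lower (-0.41). The 9 letters TCACNCCAC of a sterol regulatory element, searched on both strands, matched 0.883% of all promoters and 1 of the 22 promoters of called sterol genes (4.55%), that of SREBF2. The match is in capitals in these 29 bases, at 133 bases before the start.
SREBF2, chr22:41832962-41832990, plus strand: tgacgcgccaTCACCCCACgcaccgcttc

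**Figure D4:**
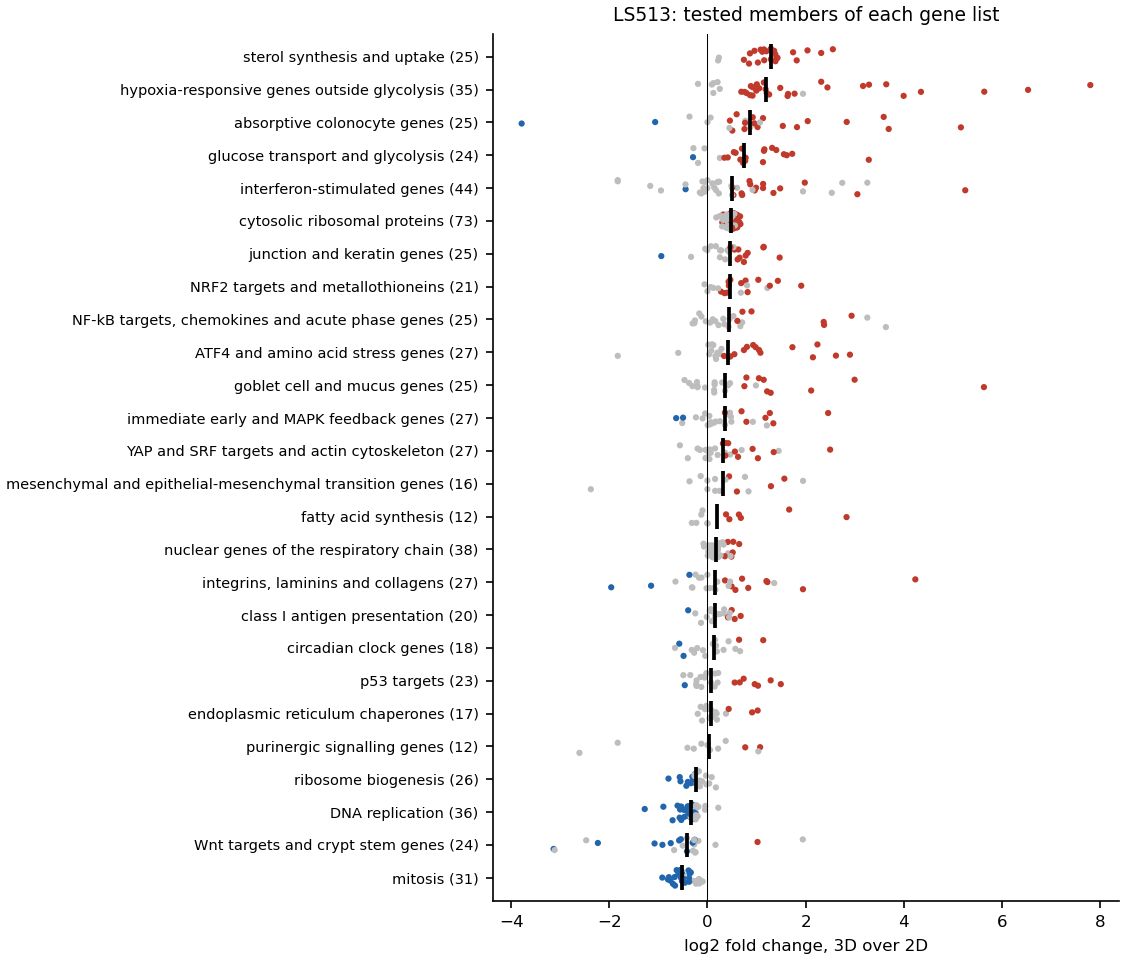
Log2 fold change of 3D over 2D for each tested member of 26 gene lists in LS513, with members called higher in red, called lower in blue and the others in grey, list medians as black bars and the number tested in brackets. Sterol synthesis lies highest with a median of 1.29 and mitosis lowest with -0.51.

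Genes of the cell cycle fell, by less than the genes above had risen. Of 31 mitosis genes 23 were lower against 9.9% of all tested genes and none was higher, with a median of -0.51. CENPF, a kinetochore protein, was at 249, 245 and 185 CPM in 2D and 128, 115 and 146 CPM in 3D (log2 fold change -0.80 ± 0.14 SE, adjusted p = 1.3e-04, edgeR). BUB1B and BUB1, proteins of the spindle checkpoint, fell by 0.66 and 0.67 on the log2 scale, and CDK1, the kinase that drives entry into mitosis, by 0.54. Members that did not pass were MKI67, CDC20, CCNB2, PLK1, PTTG1, AURKB, CDCA8 and UBE2C, all of which had fitted values below 0. Of 36 DNA replication genes 24 fell and none rose, with a median of -0.34. TYMS, the thymidylate synthase, was at 155, 156 and 143 CPM in 2D and 97, 99.9 and 112 CPM in 3D (log2 fold change -0.56 ± 0.08 SE, adjusted p = 1.8e-05, edgeR). RRM1, the large subunit of ribonucleotide reductase, was at 242, 235 and 217 CPM in 2D and 158, 146 and 175 CPM in 3D (log2 fold change -0.54 ± 0.08 SE, adjusted p = 2.4e-05, edgeR). CDCA7, a chromatin factor of replicating cells, was at 123, 139 and 141 CPM in 2D and 57.4, 44.9 and 64 CPM in 3D (log2 fold change -1.28 ± 0.14 SE, adjusted p = 5.7e-07, edgeR). MCM10, an initiation factor of replication, fell by 0.71 on the log2 scale. In TYMS, CENPF, BUB1B and CDK1, 3D replicate 3 was the closest of the 3D libraries to the 2D libraries. Against the 2D libraries, 0 mitosis and 3 replication genes were called lower with 3D replicate 3 alone, with medians of -0.32 and -0.33. With the offset the counts were 26 and 30, and the mitosis count was 15 without 2D replicate 1 and 14 without 3D replicate 2.

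The letters TTTGAA, the core of the cell cycle homology region, were found on either strand in 52.4% of 21 promoters of 19 called mitosis genes, in 3.85% of 26 promoters of called replication genes and in 13.3% of all promoters. Stretches of ASPM, a spindle pole protein, and ECT2, an exchange factor of cytokinesis, are shown because these had the largest falls among members with a match, which is in capitals. The match lay 113 bases before the start of ASPM and 115 before that of ECT2.
ASPM, chr1:197146737-197146822, minus strand: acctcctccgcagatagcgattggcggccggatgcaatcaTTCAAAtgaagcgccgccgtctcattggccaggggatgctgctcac
ECT2, chr3:172750571-172750656, plus strand: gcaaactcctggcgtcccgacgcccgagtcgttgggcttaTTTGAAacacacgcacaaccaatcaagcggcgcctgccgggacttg
ASPM fell by 0.92 and ECT2 by 0.79 on the log2 scale. Among 26 ribosome biogenesis genes 11 fell, against 9.9% of all tested genes, and none rose. The 26 include POLR1A, the large subunit of RNA polymerase I (-0.56), and UTP20 (-0.79), both needed to make ribosomal RNA. None of them passed the test with 3D replicate 3 alone (-0.23 for the median against -0.24 with all libraries), and the count was 6 without 2D replicate 1 and 7, 7 and 7 without 2D replicate 2, 3D replicate 1 or 3D replicate 2. With the offset it was 14.

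Genes of the ribosome itself moved the other way. 41 of 73 cytosolic ribosomal protein genes were higher, none was lower, and the median was 0.48. RPL3 was at 1519.6, 1472 and 1739 CPM in 2D and 2459, 2624 and 2062 CPM in 3D (log2 fold change 0.60 ± 0.13 SE, adjusted p = 0.0019, edgeR). RPS3 was at 1276, 1264 and 1494 CPM in 2D and 2058, 2335 and 1754 CPM in 3D (log2 fold change 0.61 ± 0.16 SE, adjusted p = 0.0064, edgeR). In both, 3D replicate 3 was nearer to the 2D libraries than 3D replicates 1 and 2 were. The number called was 0 with 3D replicate 3 alone, 1 without 3D replicate 2, 16 without 3D replicate 1, 10 without 2D replicate 1, 9 without 2D replicate 2 and 43 with the offset. It was 36 without 2D replicate 3, 58 without 3D replicate 3, 68 without the filter on low counts and 69 with only the 6 LS513 libraries. Genes of this list are short, with a median length of 1826 bases against 3612 for protein-coding genes, and the trend with length given above moves with them. Many have processed pseudogenes, and reads that aligned more than once were removed, so their levels are uncertain. Of 38 nuclear genes of the respiratory chain 6 were higher, a share near the 13.7% of all tested genes, with 4 of them subunits of cytochrome c oxidase such as COX5B (0.65). Without 2D replicate 2 or 3D replicate 2 there were 2, with 3D replicate 3 alone none, and with the offset 8, with 1 lower.

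Genes of absorptive colonocytes rose. 16 of 25 tested members were higher and 2 were lower, against 13.7% and 9.9% of all tested genes, with a median of 0.88. FABP1, the liver-type fatty acid binding protein of enterocytes, was at 174, 150.0 and 187 CPM in 2D and 2265, 2373 and 1515 CPM in 3D (log2 fold change 3.59 ± 0.24 SE, adjusted p = 1.9e-08, edgeR). CEACAM1, an adhesion molecule of the apical surface, was at 106, 99.6 and 129 CPM in 2D and 454, 381 and 351 CPM in 3D (log2 fold change 1.82 ± 0.16 SE, adjusted p = 1.5e-08, edgeR). KRT20, a keratin of differentiated colonocytes, was at 472, 397 and 512 CPM in 2D and 1382, 1366 and 1253 CPM in 3D (log2 fold change 1.54 ± 0.15 SE, adjusted p = 1.1e-07, edgeR). CDHR2 and CDHR5, cadherins that link the tips of microvilli, rose by 2.04 and 0.92 on the log2 scale, and ALPI, the intestinal alkaline phosphatase, by 2.84. The members that fell were GUCA2B and SLC26A2, a sulfate transporter (-1.06). The counts were 8 higher and none lower with 3D replicate 3 alone, and 16 and 3 with the offset.

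Among 25 goblet cell and mucus genes 9 rose, against 13.7% of all tested genes, and none fell, with a median of 0.36. Membrane-bound mucins were among those that rose. MUC13 was at 457, 438 and 496 CPM in 2D and 1213, 1156 and 1030.2 CPM in 3D (log2 fold change 1.29 ± 0.14 SE, adjusted p = 7.0e-07, edgeR). MUC17 was at 8.66, 5.47 and 3.67 CPM in 2D and 61.9, 54.4 and 25.9 CPM in 3D (log2 fold change 3.00 ± 0.33 SE, adjusted p = 2.6e-06, edgeR). MUC1 was at 13.9, 13.3 and 22.8 CPM in 2D and 81.7, 84.3 and 50.2 CPM in 3D (log2 fold change 2.11 ± 0.33 SE, adjusted p = 9.7e-05, edgeR). The spread within 3D was small for MUC13, and 3D replicate 3 was the lowest of the 3D libraries for all of them. KLF4, a transcription factor of differentiated epithelium, rose from 23.9 ± 0.725 to 55.5 ± 5.75 CPM (mean ± SD, n = 3 each). The secreted mucin MUC2 was at 9.52, 4.53 and 18.2 CPM in 2D and 23.3, 25.5 and 15.3 CPM in 3D, where the groups overlapped (adjusted p = 0.067, edgeR). Whether MUC2 passed depended on single libraries: without 2D replicate 3 its log2 fold change was 1.61 (adjusted p = 0.0057, edgeR), and it passed also without 3D replicate 3, without the filter on low counts and with technical replicates e to h. TFF3 (0.36), MUC5AC (-0.20) and ATOH1 (-0.47) did not pass the test. For 3D replicate 3 alone the count was 4 and the median -0.12, and with the offset 9 were higher and 1 lower.

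Wnt targets and stem cell genes of the crypt were lower in part. 10 of 24 members fell, against 9.9% of all tested genes, with a median of -0.42. Only 1, TNFRSF19, a receptor of the TNF family, rose. Besides LGR5 and SMOC2, EPHB3, an ephrin receptor that positions cells along the crypt, was at 285, 308 and 298 CPM in 2D and 192, 117 and 113 CPM in 3D (log2 fold change -1.08 ± 0.18 SE, adjusted p = 1.1e-04, edgeR). NKD1, a feedback inhibitor of the pathway, was at 41.8, 47.1 and 36.5 CPM in 2D and 27.2, 23.5 and 23.9 CPM in 3D (log2 fold change -0.75 ± 0.17 SE, adjusted p = 0.0023, edgeR). ASCL2, a stem cell transcription factor, fell from 166 ± 4.78 to 111 ± 8.21 CPM and AXIN2, a direct target, from 235 ± 6.75 to 176 ± 21.1 CPM (mean ± SD, n = 3 each). Without 3D replicate 1 AXIN2 was at -0.33 on the log2 scale and did not pass. Neither MYC (0.16), CCND1 (-0.18) nor RNF43 (-0.25) passed the test. The count was 3 with 3D replicate 3 alone, with a median of -0.30, and 11 with the offset.

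Junction and keratin genes were higher in part. 12 of 25 rose and CLDN2, a pore-forming claudin, was lower (-0.94), with a median of 0.47. With 3D replicate 3 alone 6 were higher, and with the offset 17. CLDN4, a sealing claudin, was at 496, 483 and 519 CPM in 2D and 1155, 1206 and 954 CPM in 3D (log2 fold change 1.15 ± 0.13 SE, adjusted p = 1.2e-06, edgeR). Its relative CLDN7 was at 427, 406 and 419 CPM in 2D and 729, 767 and 601 CPM in 3D. The keratin KRT19 was at 818, 779 and 803 CPM in 2D and 1839, 1977 and 1476 CPM in 3D (log2 fold change 1.14 ± 0.17 SE, adjusted p = 3.7e-05, edgeR). No 3D library of these genes overlapped with a 2D library. EPCAM, an epithelial adhesion molecule, was at 1231, 1174 and 1186 CPM in 2D and 1775, 1671 and 1816 CPM in 3D (log2 fold change 0.55 ± 0.08 SE, adjusted p = 4.0e-05, edgeR), and CDH1, which encodes E-cadherin, rose by 0.62 on the log2 scale. Among the epithelial markers that did not pass were KRT18 (-0.05), GPA33 (0.17), CDH17 (0.26) and KRT8 (0.44), while VIL1 (0.46), CDX2 (0.60), LGALS4 (0.96) and CEACAM5 (1.13) rose. Of 16 mesenchymal genes 4 were higher, against 13.7% of all tested genes, and none was lower. These were PLAUR (1.29), the urokinase receptor, FN1 (1.57), which encodes fibronectin, S100A4 (0.60) and MMP14 (0.44), and 2 passed without 2D replicate 1, 2D replicate 2, 3D replicate 1 or 3D replicate 2, as with 3D replicate 3 alone. With the offset 2 were higher and 1 lower.

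Of 27 integrins, laminins and collagens 9 were higher, against 13.7% of all tested genes, and 3 were lower, a share near the 9.9% of all tested genes. ITGA5, the fibronectin receptor subunit, was at 12.9, 13.2 and 12.7 CPM in 2D and 61.6, 50.2 and 37.8 CPM in 3D (log2 fold change 1.95 ± 0.15 SE, adjusted p = 1.1e-08, edgeR). LAMA1, a laminin chain of basement membranes, had 1 count over the 2D libraries and 16, 6 and 1 counts in 3D, a ratio of 25.8 (95% counting interval 4.19 to 1062). It passed the test with all libraries but not without 3D replicate 1 or with 3D replicate 3 alone. The chains LAMA3 and LAMB3 rose by 1.20 and 1.22 on the log2 scale, and ITGA3, a subunit of a laminin receptor, by 0.49. COL6A1 (-1.96), ITGA1 (-1.15) and LAMB1 (-0.37) fell. Of 27 YAP and SRF targets and actin genes 10 rose, against 13.7% of all tested genes, and none fell. FHL2, a LIM protein of actin fibers, was at 205, 205 and 199 CPM in 2D and 449, 426 and 368 CPM in 3D (log2 fold change 1.03 ± 0.09 SE, adjusted p = 2.9e-08, edgeR). THBS1, which encodes thrombospondin, was at 34.3, 25.7 and 41.8 CPM in 2D and 88.2, 85 and 86.3 CPM in 3D (log2 fold change 1.35 ± 0.22 SE, adjusted p = 1.0e-04, edgeR). LIMA1, which bundles actin, and ACTG1, a cytoplasmic actin, rose by 0.62 and 0.56 on the log2 scale. TGM2, a transglutaminase, had a value of 2.50. CCN1 (0.46), a common readout of YAP, and AJUBA (-0.20) did not pass the test. For 3D replicate 3 alone, 3 members of the first list and 4 of the second were higher. With the offset the first had 9 higher and 4 lower, and the second 11 higher.

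Targets of ATF4, the transcription factor of amino acid shortage and related stress, were higher. 15 of 27 members rose and none fell, with a median of 0.43. SESN2, an inhibitor of mTORC1 that senses leucine, was at 9.81, 9.82 and 9.5 CPM in 2D and 48.5, 52.7 and 28 CPM in 3D (log2 fold change 2.15 ± 0.17 SE, adjusted p = 6.2e-09, edgeR). TRIB3, a pseudokinase, was at 116, 126 and 145 CPM in 2D and 456, 489 and 339 CPM in 3D (log2 fold change 1.73 ± 0.15 SE, adjusted p = 1.5e-08, edgeR). CHAC1, which degrades glutathione, was at 4.6, 5.35 and 4.72 CPM in 2D and 23.5, 33.1 and 12.9 CPM in 3D (log2 fold change 2.24 ± 0.27 SE, adjusted p = 2.3e-06, edgeR). In SESN2 and CHAC1, 3D replicate 3 lay well below the other 3D libraries and above all 2D libraries. CTH, which makes cysteine, rose by 1.05 and ASNS, which makes asparagine, by 0.93 on the log2 scale. The transcription factors DDIT3, also called CHOP, and ATF3 rose by 2.90 and 2.62. PSAT1 (0.20) and MTHFD2 (0.18) did not pass. The count was 8 with 3D replicate 3 alone and 16 with the offset. None of the 17 genes on the list of endoplasmic reticulum chaperones, which also holds other genes of that compartment, was lower. In 3D 3 were higher, a share near the 13.7% of all tested genes. These were HERPUD1 (1.02), DNAJB9 (0.91) and SEC61B (0.43, or 0.33 and not passed without 3D replicate 2), while HSPA5, which encodes BiP, had a value of 0.11 and PDIA6 of 0.16. None passed with 3D replicate 3 alone, and 6 with the offset.

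Of 23 p53 targets 7 rose, against 13.7% of all tested genes. BTG2 fell (-0.46), but not without 2D replicate 2 or 3D replicate 1. GDF15, a stress-induced cytokine, was at 177, 175 and 218 CPM in 2D and 517, 598 and 493 CPM in 3D (log2 fold change 1.49 ± 0.22 SE, adjusted p = 3.2e-05, edgeR). BBC3, which encodes the death protein PUMA, was at 7.47, 8.64 and 8.14 CPM in 2D and 21.5, 21.2 and 16.6 CPM in 3D (log2 fold change 1.29 ± 0.17 SE, adjusted p = 7.7e-06, edgeR). PHLDA3 (0.74) and TP53I3 (0.66) were higher too. For 3D replicate 3 alone the count was 2, and with the offset 7. Of 21 NRF2 targets and metallothioneins 13 rose and none fell, SRXN1, a sulfiredoxin, at 177, 164 and 159 CPM in 2D and 245, 387 and 224 CPM in 3D among them (log2 fold change 0.78 ± 0.16 SE, adjusted p = 9.9e-04, edgeR). TXNRD1, a thioredoxin reductase (0.44), MT1X, a metallothionein (0.82) and PGD (0.35) rose as well. This count was 6 without 3D replicate 2 and 0 with 3D replicate 3 alone, with a median of 0.41 against 0.47 with all libraries, and 10 with the offset. Among 27 immediate early and MAPK feedback genes 7 rose, against 13.7% of all tested genes. A share near the 9.9% of all tested genes fell, namely 2, SPRY4 (-0.64) and SPRED1 (-0.50). DUSP1, a phosphatase of MAP kinases, was at 3.7, 4.35 and 3.93 CPM in 2D and 21.1, 30.6 and 14.3 CPM in 3D (log2 fold change 2.46 ± 0.42 SE, adjusted p = 1.7e-04, edgeR). DUSP5 rose by 1.34, JUND by 1.27 and AREG, which encodes an EGF receptor ligand, by 0.69 on the log2 scale. Without 2D replicate 3, or with 3D replicate 3 alone, 4 were higher, and neither fall passed when 2D replicate 2 or 3 or 3D replicate 1 or 2 was left out. With the offset 9 were higher and 1 lower.

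Interferon-stimulated genes were mixed in LS513. 15 of 44 rose, against 13.7% of all tested genes, and 1 fell. The median was 0.50, or 0.24 with genes that had no count in a group set to their bound. OASL was at 4.89, 5.53 and 6.11 CPM in 2D and 13.8, 15.4 and 12.9 CPM in 3D (log2 fold change 1.35 ± 0.19 SE, adjusted p = 1.5e-05, edgeR). OAS1, a sensor of double-stranded RNA, was at 75.2, 69.5 and 74.6 CPM in 2D and 152, 158 and 125 CPM in 3D (log2 fold change 0.99 ± 0.18 SE, adjusted p = 3.5e-04, edgeR). DDX60, a helicase, was at 0.869, 0.816 and 0.824 CPM in 2D and 2.32, 2.45 and 2.25 CPM in 3D (log2 fold change 1.48 ± 0.25 SE, adjusted p = 1.5e-04, edgeR). The exonuclease gene ISG20 rose by 1.98 on the log2 scale. Members such as OAS3 (-0.08) and STAT2 (-0.05) did not pass. The count was 5 with 3D replicate 3 alone and 16 with the offset. In class I antigen presentation 4 of 20 genes were higher, against 13.7% of all tested genes, among them TAPBP (0.68), HLA-E (0.49) and B2M (0.42), and ERAP1, which trims peptides, was lower (-0.39). The count of higher genes was 1 without 3D replicate 2, where ERAP1 did not pass, 8 without 3D replicate 3, 0 with 3D replicate 3 alone and 5 with the offset, where none was lower. The HLA genes are similar to each other and differ between people, so their counts are uncertain. Among 25 NF-kB targets, chemokines and acute phase genes 6 rose, against 13.7% of all tested genes, and none fell. CCL20, a chemokine, was at 0.708, 0.755 and 1.05 CPM in 2D and 3.94, 6.86 and 2.29 CPM in 3D (log2 fold change 2.38 ± 0.43 SE, adjusted p = 2.7e-04, edgeR). CXCL16, another chemokine, was at 84.7, 78.3 and 84.9 CPM in 2D and 142, 135 and 130.4 CPM in 3D (log2 fold change 0.71 ± 0.12 SE, adjusted p = 1.0e-04, edgeR). TNFAIP2, IL32 and CXCL8, which encodes interleukin-8, rose by 2.94, 0.90 and 2.37 on the log2 scale. With 3D replicate 3 alone 2 passed, and with the offset 8 were higher and 1 lower.

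Circadian clock genes showed 2 of 18 higher, NR1D1 (1.14) and NFIL3 (0.65), and 2 lower, BMAL2 (-0.57) and CRY1 (-0.49), shares near the 13.7% and 9.9% of all tested genes. Without 2D replicate 2 or 3D replicate 1 only 1 was higher, without 3D replicate 2 only 1 was lower, none passed with 3D replicate 3 alone, and 3 were higher and 1 lower with the offset. Of the purinergic genes, the subject of the study, 12 were tested and P2RX4 and P2RY2 rose, also with 3D replicate 3 alone and with the offset. That is 2 of 12, a share near the 13.7% of all tested genes. P2RX1 had too few counts to be tested here, with 1, 1 and 3 counts in 2D and 9, 9 and 10 in 3D. The study's supplement lists it as higher in 3D in LS513. P2RX4, an ATP-gated channel, was at 14.3, 13.7 and 14.7 CPM in 2D and 30.5, 33.9 and 25.5 CPM in 3D. P2RY2, a receptor for ATP and UTP, was at 14.9, 15 and 14.9 CPM in 2D and 28.5, 23.1 and 24.7 CPM in 3D. NT5E, which encodes CD73, was at 42.5, 40.8 and 49.2 CPM in 2D and 33.8, 28.5 and 37.7 CPM in 3D, where the groups did not overlap (adjusted p = 0.063, edgeR). It passed as lower without the filter on low counts (0.016), in the 6 LS513 libraries alone (0.024), with the replicate block (0.030) and without 3D replicate 3 (0.040, adjusted p of edgeR in each case). P2RY1 was at 19.2, 19.2 and 19 CPM in 2D and 13.8, 12.4 and 21.2 CPM in 3D, with 3D replicate 3 above the 2D libraries and the others below. PANX1 (-0.12), ADORA2B (0.05), P2RY11 (0.22) and P2RX6 (0.37) did not pass the test.

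To ask where LS513 differed from the other lines, its growth effect was compared with the mean growth effect of HT29, HCT116 and LS174T in the same fit. At an adjusted p under 0.05 the difference was positive for 646 genes (3.33%, called larger below) and negative for 557 (2.87%, called smaller). Only the sign decides, so a deeper fall in LS513 counts as smaller. No value of the difference is given for 2916 genes that had no count in a whole group of any line, which holds for IGFBP3, FABP1, LGR5 and SMOC2 among the genes above. The counts of 646 and 557 still include 28 such genes, whereas the counts in gene lists below leave them out. Of the 4571 genes called in LS513, 728 (15.9%) differed from the mean of the other lines, 489 with a larger rise and 193 with a larger fall. The counts over all tested genes with 3D replicate 3 alone were 224 and 225.

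Sterol synthesis genes rose more in LS513 than in the mean of the other lines. For 16 of 25 genes the rise was larger and for none smaller, against 3.33% of all genes, and the list medians of the growth effect were 0.34 in HT29, 0.64 in HCT116 and 0.73 in LS174T against 1.29 in LS513. INSIG1 had a difference of 1.64 ± 0.20 SE, adjusted p = 1.9e-05, edgeR, with growth effects of 0.56, 0.89 and 1.29 in HT29, HCT116 and LS174T. MVD (1.29), FDPS (0.92), ACAT2 (0.70) and ACSS2 (1.60) had larger rises too. The count was 7 with 3D replicate 3 alone. ATF4 targets also moved this way, with 14 of 27 larger and none smaller, or 4 with 3D replicate 3 alone. SESN2 had a difference of 2.01 ± 0.19 SE, adjusted p = 1.2e-06, edgeR, and its growth effect in the other lines was -0.08 in HT29, 0.26 in HCT116 and 0.23 in LS174T. Among YAP and SRF targets and actin genes 9 of 27 were larger, FHL2 (0.71) and THBS1 (1.37) among them, and 4 with 3D replicate 3 alone.

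For 14 of 44 interferon-stimulated genes the growth effect was smaller in LS513 and for 1, SAMD9, it was larger, against 2.87% and 3.33% of all genes, and 9 had no value. The smaller count was 9 without 2D replicate 3, and SAMD9 did not pass without 2D replicate 2, 2D replicate 3 or 3D replicate 3. The list medians were 1.28 in HT29, 2.66 in HCT116 and 0.07 in LS174T, so that the median of LS513 lay between those of LS174T and HT29. IFITM1 was at 50.4, 47.7 and 68.4 CPM in 2D and 99.7, 97 and 74.5 CPM in 3D in LS513 and had a difference of -3.26 ± 0.45 SE, adjusted p = 7.9e-05, edgeR. Its growth effects were 3.85 in HT29, 7.42 in HCT116 and 0.62 in LS174T against 0.70 in LS513, so that the value of LS174T was close to that of LS513. Class I genes followed with 6 of 20 smaller, and Wnt targets with 6 of 24 smaller, such as EPHB3, at -1.51 ± 0.21 SE, adjusted p = 7.2e-05, edgeR. EPHB3 fell in LS513 and had growth effects of 0.59 in HT29, 0.23 in HCT116 and 0.47 in LS174T. With 3D replicate 3 alone the smaller counts were 8, 4 and 2 in the same order, and with the offset 15, 9 and 5. For 31 mitosis, 26 ribosome biogenesis and 73 ribosomal protein genes no difference passed the test of edgeR, with 1, 1 and 7 at an unadjusted p under 0.05 and 0, 0 and 1 called by DESeq2. Without the filter on low counts, however, edgeR called 13 of the ribosomal protein genes smaller. For hypoxia-responsive genes 4 of 35 were larger and 3 smaller, or 2 and 1 without 2D replicate 1. An adjusted p that misses the threshold does not show that the lines respond alike. The growth medium of HCT116 differs from that of the others, and its part in these differences was not tested.

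**Figure D5:**
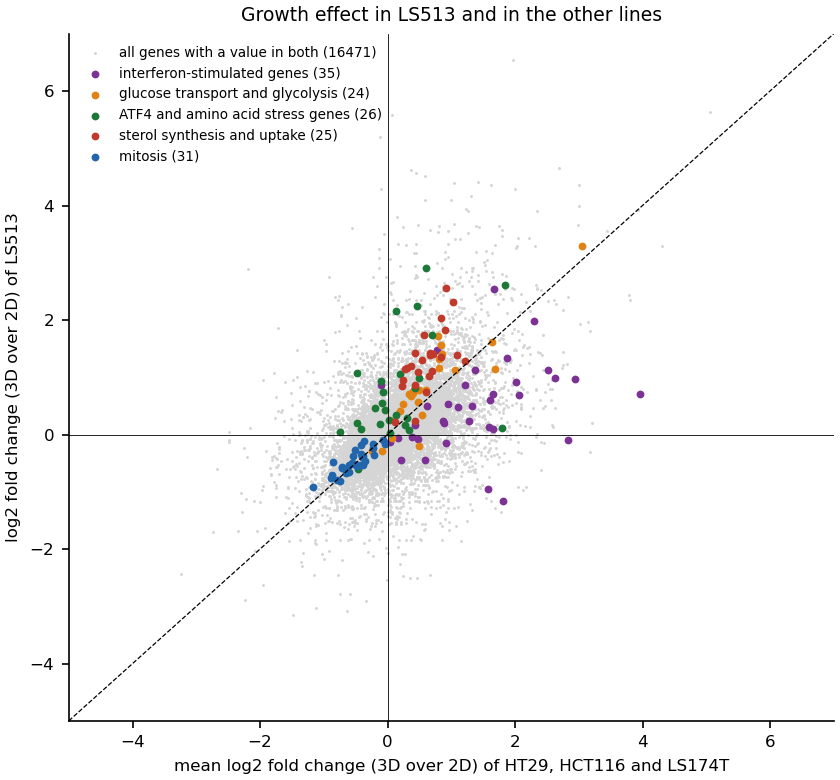
Log2 fold change of 3D over 2D in LS513 against the mean of HT29, HCT116 and LS174T for the 16471 genes with a value in both, with 5 gene lists in color and the line of equal change dashed. Genes of sterol synthesis (red) and ATF4 targets (green) lie mostly above the dashed line, interferon-stimulated genes (purple) mostly below it and mitosis genes (blue) close to it.

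By size of the difference, the genes with the largest positive differences were CHD5, TMEM45A, ZNF274, ENSG00000238178 and SSUH2. ZNF274, a zinc finger repressor, was at 0.0322, 0.0302 and 0.095 CPM in 2D and 1.44, 1.6 and 1.11 CPM in 3D in LS513, and its difference was 4.25 ± 0.39 SE, adjusted p = 7.5e-07, edgeR. SSUH2 was at 0.29, 0.363 and 0.348 CPM in 2D and 4.05, 3.98 and 1.59 CPM in 3D, and its difference was 3.39 ± 0.49 SE, adjusted p = 9.5e-05, edgeR. The gene listed as ENSG00000238178 had a difference of 3.59, with growth effects of 1.86 in LS513, -5.19 in HT29, 0.66 in HCT116 and -0.64 in LS174T, so that HT29 took the largest part in it. TMEM45A had growth effects of 0.46, 0.65 and 4.79 in HT29, HCT116 and LS174T. In ZNF274, SSUH2 and ENSG00000238178 every 3D library was above every 2D library. In the other direction, ATOH8, a transcription factor, was at 1.25, 1.93 and 1.55 CPM in 2D and 1.69, 1.24 and 0.901 CPM in 3D in LS513, where the groups overlapped, and its difference was -3.48 ± 0.43 SE, adjusted p = 1.9e-05, edgeR, with growth effects of 6.33, 1.24 and 1.96 in HT29, HCT116 and LS174T. The others were IFITM1, MIR675, CCL24, a chemokine (-3.02), and TMEM61 (-3.01). MIR675 (-3.14) is a hairpin within the transcript of H19 (-2.96), and reads of the hairpin and of the transcript cannot be told apart. In LS513 H19 itself was at 59.6, 55.8 and 119 CPM in 2D and 44.8, 38 and 42.1 CPM in 3D. The NR4A3 gene fell in LS513 and had growth effects of -0.23, 0.56 and 0.73 in HT29, HCT116 and LS174T (difference -2.87 ± 0.54 SE, adjusted p = 0.0014, edgeR).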

How the data were processed

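Poly(A) RNA of the libraries was prepared with a stranded TruSeq kit and sequenced as single reads on a NextSeq 500. The authors trimmed reads with Trim Galore 0.4.1, aligned them with STAR, removed reads that aligned more than once and counted reads per gene with HTSeq 0.5.3. The deposited values are raw counts per gene and technical replicate, without normalization. The methods name Ensembl 91 genes and the labels an hg19 build, and no coordinates of the files were used. One technical replicate of HT29 was not analysed here.

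Here counts were summed over technical replicates, giving between 31052819 and 33063055 counts per LS513 library. Gene names were matched for 57980 of 58243 rows. All 24 libraries were fitted in 1 model with 8 groups, using edgeR 4.0.16 (TMM, filterByExpr, robust quasi-likelihood) in R 4.3.3, and 19387 genes were tested with Benjamini-Hochberg adjustment at 0.05. This differs from the tool of the study, DESeq2, which was an alternative (1.42.0). CPM are relative to TMM-scaled library sizes and given with the SD over 3 libraries, and intervals and floors cover counting error only. The fit was tested on simulated data. Alternatives were other size factors, no filter on low counts, only the 6 LS513 libraries, technical replicates a to d or e to h only, leaving out each library, the replicate block and other cutoffs. An offset for GC content and length (GENCODE 29) and 3D replicate 3 alone were chosen after seeing the data.

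The gene lists were chosen with earlier results of these data known. Genes named are the 10 largest rises and falls among called genes without overlap and with a mean of at least 1 CPM, the 5 smallest p-values in each direction, the 4 smallest in each list, the colon markers, the detected purinergic genes and the 5 largest differences from the other lines in each direction. Some genes are not reported here. Other named genes were chosen after their values were seen, as were the promoters shown. Promoters and the miRNA sequence come from RefSeq tables on GRCh38.p14, searched from 250 bases before each start. In 2D and 3D, libraries with the same number were not paired: their deviations from the group means correlated at 0.079, -0.019 and -0.128 for numbers 1, 2 and 3.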

Additional observations from a re-analysis of the deposited data

Results flagged for a closer look

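The genes here are those named above whose change with growth in LS513 differed from the mean change in HT29, HCT116 and LS174T in a direct test of the difference (adjusted p under 0.05, edgeR). The value given is the difference in log2 fold change, LS513 minus the mean of the other lines, and is neither a level nor the change in LS513 itself. Most were also chosen for a change in LS513, so that their number says nothing about how common differences are. A difference from the mean can hide a single line that goes past LS513. LDHA rose by 1.39 in LS174T against 1.16 in LS513, and CEACAM1 by 2.58 in HCT116 against 1.82 in LS513. ITGA3 rose by 0.68 in HCT116 against 0.49 in LS513, and was at -0.40 in HT29 and -0.33 in LS174T. KRT20, with a negative difference, rose by 0.76 in HT29 against 1.54 in LS513. Negative differences were also found for CDX2, at 0.17 in HCT116 against 0.60 in LS513, and OAS1, at 0.73 in LS174T against 0.99 in LS513. Over all tested genes differences were positive (larger) for 3.33% and negative (smaller) for 2.87%. A gene that fell more deeply in LS513 is thus on the smaller side.

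Sterol and acetyl-CoA genes were all on the larger side. INSIG1 stood at 1.64, ACSS2 at 1.60, MVD at 1.29 and HMGCS1 at 1.20. Smaller differences of the same sign were found for DHCR7 (1.00), FDPS (0.92), SQLE (0.88), FDFT1 (0.72) and ACAT2 (0.70), whereas the desaturase FADS2 was at -0.57. Among ATF4 targets and related stress genes, DDIT3 had 2.31, SESN2 2.01, CHAC1 1.78, ASNS 1.04, TRIB3 1.03, CTH 0.85, PSAT1 0.68 and HERPUD1 0.64. Of the redox genes, TXNRD1 had 0.75 and SRXN1 0.73.

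Genes of glycolysis and hypoxia were found on both sides. The larger ones were DDIT4 (1.89), BHLHE40 (1.53), SLC16A3 (0.94), SLC2A1 (0.55) and LDHA (0.36), and the smaller ones NDRG1 (-1.02) and PFKFB3 (-0.68). TMEM45A had a difference of 4.57 on 2 counts over the 2D libraries of LS513.

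Among genes of the matrix and the cytoskeleton, LAMA3 (1.47), THBS1 (1.37), FHL2 (0.71) and ITGA3 (0.51) were larger, and COL6A1 (-2.12), ITGA1 (-1.06) and LAMB1 (-0.39) smaller. Epithelial genes were divided as well, with GCNT3 (1.66), CEACAM1 (0.73) and EPCAM (0.55) larger and ATOH1 (-2.37), GPA33 (-1.55), KRT20 (-0.68), CLDN2 (-0.67) and CDX2 (-0.48) smaller. The Wnt targets and neighbours EPHB3 (-1.51), NKD1 (-1.21), RGMB (-1.20) and CDCA7 (-0.90) had negative differences, and all of them fell in LS513. RGMB, for example, fell by 1.68 in LS513 against 0.55 in HT29, 0.61 in HCT116 and 0.27 in LS174T. NKD1 had growth effects of -0.75 in LS513, 2.01 in HT29, -0.04 in HCT116 and -0.58 in LS174T. HT29 thus took the largest part in its difference, and the value of LS174T was close to that of LS513.

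Interferon-stimulated and antigen presentation genes were mostly smaller, with IFITM1 at -3.26, OAS1 at -1.64, ERAP1 at -0.60, OAS3 at -0.56 and B2M at -0.45, and SAMD9 at 0.97 was larger. Inflammatory and receptor genes that were larger were TNFAIP2 (2.75), DUSP5 (1.03), P2RY2 (0.88) and CXCL16 (0.73). BTG2, a p53 target, was smaller (-1.01).

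The remaining genes belong to none of these groups. CHD5 (5.31), ZNF274 (4.25), ENSG00000238178 (3.59), SSUH2 (3.39) and FAM13A (1.42) were larger. So were the enterocyte genes MTTP (3.02) and SLC51A (2.73). ATOH8 (-3.48), MIR675 (-3.14), CCL24 (-3.02), TMEM61 (-3.01), H19 (-2.96) and NR4A3 (-2.87) were smaller.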

How the results depend on the processing

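Of 187 named genes called in LS513, all 187 kept direction and call under the size factors of DESeq2 and under DESeq2 itself, and none changed sign under any alternative. The call was lost for 1 without the filter on low counts, 6 with the offset for GC content and length, 2 to 18 when 1 library was left out (most without 3D replicate 2) and 73 with 3D replicate 3 alone. Lost without 1 library were, beside those named in the report, CCL24, H19, LAMB1, SAMD9, RPL12, RPS2, RPS3, COX4I1 and COX6B1, with log2 fold changes of -0.47 for H19 without 2D replicate 3, -0.50 for CCL24 and 0.56 for SAMD9 without 3D replicate 3, and -0.30 for LAMB1, 0.50 for RPS3 and 0.38 for COX4I1 without 3D replicate 2. Among named genes that were not called, PDIA6, NT5E, CDH17, KRT8, IFITM1, ATOH1, AURKB, CCNB2, CDC20, FADS2, MKI67, MTHFD2, MUC2, PLK1, RNF43, SLC16A1, TFF3 and UBE2C passed under at least 1 alternative. Using 3D replicate 3 alone has fewer libraries and left 699 genes higher and 134 lower over all tested genes against 2651 and 1920, 397 and 52 against 942 and 233 by more than 1 on the log2 scale, and 224 larger and 225 smaller differences from the other lines against 646 and 557. Leaving out 1 library gave 1811 to 2846 genes higher, 973 to 2375 lower, 760 to 1082 higher and 152 to 344 lower by more than 1, and 390 to 552 larger and 348 to 443 smaller differences. Of 4571 calls, 1557 lay under -0.5 or over 1.5 in log2 fold change. DESeq2 called 2875 genes higher and 2042 lower.

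Libraries with the same number were not paired by the labels or by their correlations. With the replicate block 2208 genes were higher and 1427 lower, and the differences from the other lines numbered 355 larger and 275 smaller; that of TMEM45A then had an adjusted p of 0.088 (edgeR).

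Values of genes that were not called changed sign for COL1A1 with technical replicates e to h (-0.15), for MT-ND3 without 3D replicate 2 (leaving out 1 library gave -0.15 to 0.35), for TMEM61 without 3D replicate 1 (-0.15 to 0.47), with the offset for TMEM61 (-0.075), P2RY11 (-0.012), ACACA (0.023) and PMVK (-0.033), and with 3D replicate 3 alone for MT-ND3 (-0.054), GPA33 (-0.021), TMEM61 (-0.54), PANX1 (0.050), P2RY1 (0.13), P2RY11 (-0.024), CCN1 (-0.14), CCND1 (0.0062), HSPA5 (-0.047), STAT2 (0.012) and TFF3 (-0.17). The cause was not tested. At 3 libraries a group, changes of low genes such as GUCA2B are limited by few counts.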

Other observations

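The lists described here were put together after the values had been seen, so their counts are descriptions of what drew attention. Most genes of a list of lipid uptake, storage and export by enterocytes were higher in 3D. The list also holds genes of other processes, such as fatty acid oxidation (ACADM) and gluconeogenesis (PCK1). Of 34 tested members 23 rose, against 13.7% of all tested genes, and 1, ACADM, a dehydrogenase of fatty acid oxidation, fell. The median log2 fold change was 1.03. MTTP, which loads lipid onto apolipoprotein B, was at 0.0965, 0.151 and 0.285 CPM in 2D and 1.37, 2.06 and 1.94 CPM in 3D (log2 fold change 3.31 ± 0.34 SE, adjusted p = 2.1e-07, edgeR). NPC1L1, the intestinal importer of cholesterol, was at 0.0965, 0.0302 and 0.317 CPM in 2D and 1.66, 1.7 and 1.07 CPM in 3D (log2 fold change 3.30 ± 0.54 SE, adjusted p = 9.8e-05, edgeR). SLC51A, a subunit of the basolateral bile acid exporter, was at 0.257, 0.121 and 0.158 CPM in 2D and 4.72, 4.44 and 2.01 CPM in 3D (log2 fold change 4.36 ± 0.43 SE, adjusted p = 1.6e-07, edgeR). No 3D library of these genes overlapped with a 2D library. NR1I2, a nuclear receptor of bile acids and drugs, rose by 3.48 and PCK1, which starts gluconeogenesis, by 3.05 on the log2 scale. With 3D replicate 3 alone 17 members were higher and the median was 1.03, and with the offset for GC content and length 23 were higher and 2 lower. The list medians in the other lines were 0.99 in HT29, 0.38 in HCT116 and 0.76 in LS174T.

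Genes of the cornified envelope and of stratified epithelium, which colonocytes are not known for, were detected and partly higher in 3D. Of 19 tested members 9 rose, against 13.7% of all tested genes, and none fell. SPRR1A, a small proline-rich precursor of the envelope, was at 7.88, 6.19 and 6.08 CPM in 2D and 99.7, 105 and 51.9 CPM in 3D (log2 fold change 3.67 ± 0.31 SE, adjusted p = 2.6e-08, edgeR), and SPRR2D, a relative, at 0.225, 0.302 and 0.729 CPM in 2D and 9.9, 13.9 and 4.64 CPM in 3D (log2 fold change 4.49 ± 0.44 SE, adjusted p = 2.8e-07, edgeR). DSG3, a desmosomal cadherin, was at 0.0965, 0.0302 and 0.222 CPM in 2D and 2.71, 2.27 and 2.49 CPM in 3D (log2 fold change 4.39 ± 0.50 SE, adjusted p = 1.1e-06, edgeR), and CLIC3, an intracellular chloride channel protein, at 0.547, 0.604 and 1.2 CPM in 2D and 12, 11.4 and 6.44 CPM in 3D (log2 fold change 3.66 ± 0.31 SE, adjusted p = 1.5e-08, edgeR). Genes of the SPRR family are similar in sequence and reads aligning more than once were removed, so their levels are uncertain. Keratins of stratified epithelium other than KRT16 did not pass the test. With 3D replicate 3 alone 5 members were higher, and with the offset 9.

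The 13 mitochondrially encoded proteins had log2 fold changes from -0.12 to 0.22, and none passed the test of edgeR, with 0 at an unadjusted p under 0.05 and 0 called by DESeq2.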
